A study of Caenorhabditis elegans with 2 samples.

Results

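The genes described are 10 loci, a list fixed with earlier results of these data known. They code for acetylcholine receptor subunits, a calcium channel, a ryanodine receptor, a calcium pump and potassium channel family members of Caenorhabditis elegans. The list groups them as muscle genes. They are unc-29, unc-38, unc-63, lev-1 and lev-8, egl-19, unc-68 and sca-1, and unc-58 and twk-18, 10 of 19973 protein-coding genes of the nuclear chromosomes. For each gene, every deposited region was taken whose summit, the point of highest enrichment, lay between 3000 bp upstream of the gene and its end. These windows are called locus windows below. They held 38 of the 30000 regions called on the pooled reads, 44 of the 30000 of replicate 1 and 35 of the 30000 of replicate 2.

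The study was a chromatin immunoprecipitation with sequencing (ChIP-seq) of tagged PAT-9, a C2H2 zinc finger transcription factor needed for body wall muscle development. It used whole late embryos of strain RW12085, obtained by egg bleaching, with an age label of 3 hours and sexes pooled, and an antibody against GFP on chromatin sheared to 200 to 800 bp. There was 1 group of 2 biological replicates, all carrying the same CRISPR insertion at pat-9, and no second condition. The strain label gives an mNG and 3xFlag insertion, whereas other labels give an eGFP fusion or a GFP-FLAG tag at the C terminus, and which tag was present was not tested here. Since whole embryos were used, the lists do not show in which cells a locus was occupied. A control library entered the authors' calling and was not analysed here.

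Every value below is the authors' signal for a region, on a scale that holds only within one list, with its rank in that list, where rank 1 is the strongest. The lists run far below any threshold, down to a signal of 23.9 in the pooled list, so the weak regions in them include background. The authors' optimal list, made by a reproducibility filter (IDR), holds 735 peaks. These were the 735 pooled regions with the highest signal, which is 2.45% of the pooled list, and the weakest of them had a signal of 101.3. Read depth is unknown, no test between conditions is possible, and the counts below are descriptions set beside the same counts over all genes or regions.

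As background, the levamisole-sensitive acetylcholine receptor at the worm neuromuscular junction is a pentamer of the alpha subunits UNC-38, UNC-63 and LEV-8 and the non-alpha subunits UNC-29 and LEV-1, and it is the target of the anthelmintic levamisole. Its opening depolarises the muscle membrane, which opens the voltage-gated L-type calcium channel EGL-19. Calcium is then released from the sarcoplasmic reticulum through the ryanodine receptor UNC-68 and pumped back by the calcium ATPase SCA-1. TWK-18 and UNC-58 belong to the tandem-pore-domain potassium channel family, which sets resting membrane properties.

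The sequences at the strongest regions show how different these sites are, and 5 of them are given here, 5′ to 3′, from the RefSeq sequence of WBcel235. The first is the whole pooled region at unc-58, the strongest of all 10 loci, read on the plus strand with an annotated tRNA-Arg gene in capitals. The others are the summit base with 75 bp on each side, read on the strand of the gene, with capitals marking GAGAGA or the E box CANNTG on either strand. They come from the unc-68 peak 1536 bp upstream of the gene, from the strongest region of sca-1, which fell short of the optimal list, and from the intronic regions of egl-19 and lev-1.
unc-58, chrX:10132667-10132776, plus strand: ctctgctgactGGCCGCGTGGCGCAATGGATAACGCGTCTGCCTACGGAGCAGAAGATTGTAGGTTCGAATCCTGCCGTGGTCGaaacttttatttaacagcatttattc
unc-68, chrV:6930499-6930649, minus strand: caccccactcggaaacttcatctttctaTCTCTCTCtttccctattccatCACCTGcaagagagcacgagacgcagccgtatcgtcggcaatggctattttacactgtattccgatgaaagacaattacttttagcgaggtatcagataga
sca-1, chrIII:10817035-10817185, minus strand: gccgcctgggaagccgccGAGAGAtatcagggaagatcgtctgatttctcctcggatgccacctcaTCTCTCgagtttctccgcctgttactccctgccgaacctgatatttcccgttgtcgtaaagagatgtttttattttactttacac
egl-19, chrIV:7406811-7406961, plus strand: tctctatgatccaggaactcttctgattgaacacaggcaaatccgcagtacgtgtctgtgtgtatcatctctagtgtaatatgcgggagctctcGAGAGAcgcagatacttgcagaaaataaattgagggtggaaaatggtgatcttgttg
lev-1, chrIV:13174635-13174785, minus strand: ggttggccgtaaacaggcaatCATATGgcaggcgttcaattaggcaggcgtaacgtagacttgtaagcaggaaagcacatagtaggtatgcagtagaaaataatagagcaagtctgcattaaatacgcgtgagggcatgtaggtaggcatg

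Of the 110 bp of the unc-58 region 73 are the tRNA gene, which contains GTTCGA, a word of the B box, the promoter element inside tRNA genes. The unc-68 stretch holds overlapping GAGAGA words, written TCTCTCTC on this strand, and the E box CACCTG. The sca-1 stretch holds GAGAGA once on each strand, that of egl-19 holds it once, and that of lev-1 holds no GAGAGA and the E box CATATG. The E box of lev-1 and a GAGAGA of sca-1 lie farther than 50 bp from the summit and are not in the motif counts given below.

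Peaks that passed the authors' filter lay at 4 of the 10 loci: the receptor subunit genes unc-29 and unc-63, the ryanodine receptor gene unc-68 and the channel gene unc-58. Over all 19973 protein-coding genes, 979 (4.9%) had an optimal peak in the same kind of window. The members were chosen with earlier results of these data known, so these contrasts are descriptions and not tests. The member windows were long, from 5793 to 31573 bp, and of the 6952 genes whose window had a length in that range 7.21% had one. The peak of unc-58 had its summit inside a tRNA gene. Without summits within 200 bp of a tRNA gene, 3 members had a peak, against 4.05% of all genes. The strongest pooled region of a member had a median rank of 1586, against 6363 over the 5715 genes of similar window length that had any region and 8374 over all 13523 genes that had one. With windows that began 1000 bp upstream, 2 of the 10 members, unc-29 and unc-58, had an optimal peak, against 3.31% of all genes. With these windows the median rank was 5226.5 over the members, against 7718 over the same genes of similar length and 9553 over all genes with a region.

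**Figure D1:**
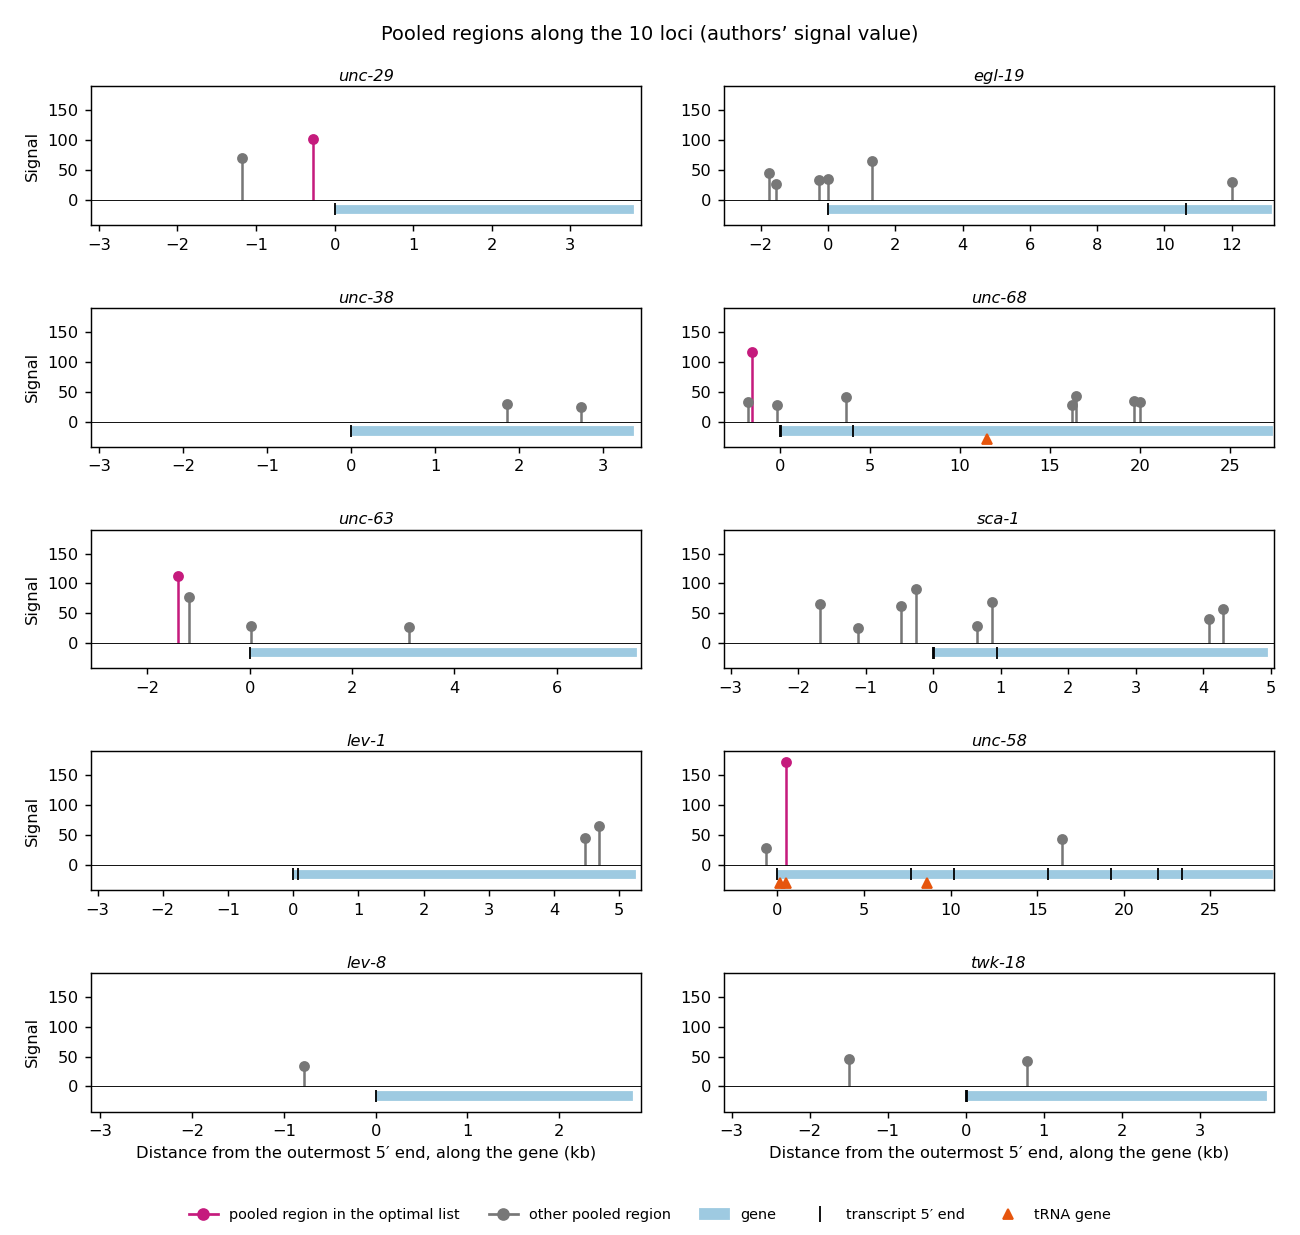
Pooled regions along the 10 locus windows, with the distance from the outermost annotated 5′ end along the gene in kb on the x axis and the authors' signal on the y axis; scales on the x axis differ between genes. Magenta stems are regions in the optimal list and grey stems are other regions; blue bars are genes, black ticks transcript 5′ ends and orange triangles tRNA genes. Of the 4 magenta stems, those of unc-63 and unc-68 stand over 1 kb upstream, that of unc-29 close to the start and that of unc-58 on a tRNA gene.

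Among the acetylcholine receptor genes, unc-29 and unc-63 had optimal peaks upstream and unc-38, lev-1 and lev-8 had none. unc-29, which codes for a non-alpha subunit that the receptor cannot do without, lies on the minus strand of chromosome I from 8897632 to 8901435. Its peak, from 8901497 to 8901926, had its summit 277 bp upstream of the only annotated 5′ end. That summit lay inside the noncoding RNA gene T08G11.8, 64 bp from the 5′ end of that gene. The pooled signal was 102.5 (rank 715), and the matching regions had signals of 40.2 in replicate 1 (rank 990) and 60.9 in replicate 2 (rank 897). The peak was thus outside the 735 strongest of each replicate on its own, and it stood just inside the pooled limit of 101.3. A second region 1177 bp upstream ranked 1805, with a pooled signal of 70.1, and was found again at rank 4523 in replicate 1 and at rank 2891 in replicate 2.

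unc-63, the gene of an alpha subunit, lies on the plus strand of chromosome I from 5141673 to 5149226 and had the stronger of the receptor peaks. The peak, from 5140061 to 5140490, had a pooled signal of 113.1 (rank 573), and its summit lay 1397 bp upstream of the start. The nearest annotated 5′ end was that of the noncoding RNA gene Y110A7A.24, 597 bp away. The replicates differed here: the region ranked 1811 in replicate 1, with a signal of 34.3, and 474 in replicate 2, with a signal of 79.6. The summit in replicate 2 was 102 bp closer to the gene, between the pooled summit and that of a second pooled region 1185 bp upstream, which had a signal of 76.6 and rank 1449. The replicate regions with summits nearest to that second one ranked 7887 in replicate 1 and 7108 in replicate 2. Regions at the start of unc-63 itself (28 bp downstream, rank 20837) and in an intron (rank 24948) were among the weakest of the list.

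The other 3 subunit genes had only weaker regions. lev-1, the gene of the other non-alpha subunit, lies on the minus strand of chromosome IV from 13174157 to 13179395, and its strongest region lay in an intron near the 3′ end of the gene. That summit was 4610 bp downstream of the nearest 5′ end of lev-1, and the nearest start of another gene, nas-14, was 4169 bp away. Its pooled signal was 64.4 (rank 2329). In replicate 2 it had rank 1792 and a signal of 46.4, whereas in replicate 1 the only overlapping region ranked 12012, with its summit 297 bp away. The strongest lev-1 region of replicate 1 was another one, in an intron 1173 bp downstream of a start, at rank 4627.

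unc-38, the gene of an alpha subunit that the receptor likewise needs, lies on the minus strand of chromosome I from 4897620 to 4900974. It had no pooled region upstream and 2 in coding exons, with signals of 30.2 (rank 19692) and 24.3 (rank 29151). The first was found in replicate 2 only, at rank 14978, and the second in replicate 1 only, at rank 4332. lev-8, an alpha subunit gene on the plus strand of chromosome X from 11560915 to 11563707, had a single pooled region, 785 bp upstream, with a signal of 33.8 (rank 15393). The nearest annotated 5′ end to that summit was that of the noncoding RNA gene C35C5.17, 90 bp away. The lev-8 region overlapped a region of rank 3085 in replicate 1, whose summit was 234 bp away, and replicate 2 had no region in the window. Of the genes with any pooled region, 82.6% had one ranked at least as high as that of unc-38, and 72.9% one at least as high as that of lev-8. In replicate 1, where both loci ranked higher, these shares were 29.3% and 22.9%.

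**Figure D2:**
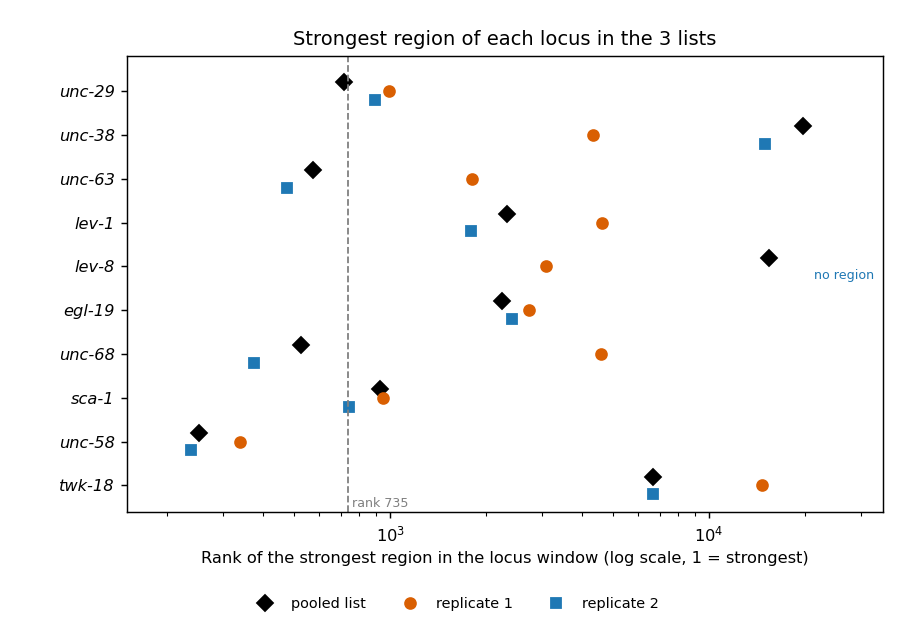
Rank of the strongest region in each locus window (log scale on the x axis, 1 is the strongest) for the 10 genes in rows; diamonds are the pooled list, circles replicate 1 and squares replicate 2, and the dashed line marks rank 735. unc-58 is left of the line in all 3 lists, unc-63 and unc-68 in the pooled list and in replicate 2, and unc-29 in the pooled list only.

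In the calcium group, unc-68 had an optimal peak, sca-1 had 4 regions among the strongest 3000 but none in the optimal list, and egl-19 had weaker ones. unc-68, which codes for the calcium release channel of the sarcoplasmic reticulum, lies on the minus strand of chromosome V from 6901681 to 6929038. Its peak, from 6930359 to 6930788, is the GAGAGA and E box sequence given above. It had a pooled signal of 117.2 (rank 527), the highest of the 3 member peaks away from tRNA genes, with the summit 1536 bp upstream of the nearest unc-68 start. The noncoding RNA gene Y57E12B.8 started 146 bp from it. The replicates ranked it far apart. In replicate 2 its signal was 88.8 (rank 375), and in replicate 1 it had a signal of 27.0 (rank 4572), with the summit 15 bp away. The other 7 pooled regions of unc-68 had ranks from 8457 to 23973, including one 376 bp upstream of an internal start (rank 8752) and one 129 bp upstream of the outermost start (rank 23973).

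sca-1, the gene of the pump that returns calcium to the sarcoplasmic reticulum, lies on the minus strand of chromosome III from 10811906 to 10816850 and had the densest set of regions. Its window held 8 pooled regions, or 10.1 per 10 kb, and only 1.903% of all protein-coding genes were as dense. The median over all genes was 2.33 per 10 kb. The strongest, from 10816895 to 10817324, had a signal of 90.9 (rank 930), with the summit 260 bp upstream of the outermost start and 46 bp from the noncoding RNA gene K11D9.6. It therefore fell below the optimal limit of 101.3, although its −log10 q of 2.79 was above the 2.68, 2.58 and 2.55 of the peaks at unc-29, unc-63 and unc-68. Its signal was 33.8 in replicate 1 (rank 1934, summit 121 bp away) and 65.2 in replicate 2 (rank 745, summit 1 bp away).

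A second sca-1 region lay 76 bp upstream of an internal start of the gene, with a pooled signal of 69.6 (rank 1852). In replicate 1 this was the strongest region of the locus, with a signal of 40.7 (rank 946), and in replicate 2 it had a signal of 46.8 (rank 1746). Both the outermost and an internal start of sca-1 thus had a region among the strongest 3000 of the pooled list. Further regions lay 1675 bp upstream (rank 2157) and 483 bp upstream (rank 2581), both inside the long noncoding RNA gene linc-129, and in the 3′ UTR (rank 3301). The first of these ranked 1685 in replicate 2 and 18661 in replicate 1, and the second 5248 and 29804. With the 1470 strongest pooled regions in place of the 735, sca-1 was the only further member with a peak, which made 5 of 10, against 9.05% of all genes.

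egl-19, the gene of the L-type channel that carries the muscle action potential, lies on the plus strand of chromosome IV from 7405582 to 7418740. Its strongest region lay in an intron 1304 bp downstream of the outermost start, with a pooled signal of 65.3 (rank 2241). The replicates ranked it close together, at 2717 in replicate 1 (signal 30.9) and 2401 in replicate 2 (signal 42.0), with summits 52 and 3 bp from the pooled one. The nearest 5′ end of any gene was that of the piRNA gene 21ur-8639, 328 bp away. At the outermost start of egl-19 a region with the summit 8 bp upstream ranked only 13336, and the nearest region to the internal start, 1369 bp downstream of it, ranked 19260.

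The channel genes unc-58 and twk-18 differed widely in the strength of their regions. unc-58, on the minus strand of chromosome X from 10104610 to 10133182, had the strongest region of all members. Its pooled signal was 171.5 (rank 252), and the replicates gave 58.3 (rank 338) and 112.5 (rank 237). It was the only member peak among the strongest 735 regions of both replicates. The region was 110 bp wide, whereas 29807 of the 30000 pooled regions were 430 bp wide, and 3 of the 174 optimal peaks at tRNA genes were 110 bp or narrower. Its summit lay 490 bp inside unc-58, within T06H11.t2, a tRNA-Arg gene on the plus strand of chromosome X from 10132678 to 10132750, and within the noncoding RNA gene T06H11.17.

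That tRNA gene has the same 73 bp sequence as T06H11.t3, which lies in the opposite direction 279 bp from the summit. The genome holds 10 exact copies of this sequence, and 5 of the 10 copies had an optimal summit within 200 bp. The sources used here do not say how reads shared by copies were placed. The signal of 171.5 was close to the median of 170.3 over the 174 optimal peaks at tRNA genes, which were 23.7% of the optimal list. Binding at unc-58 and binding at the tRNA gene inside it cannot be told apart from these lists. Over its long window unc-58 had the lowest density of the members, 0.95 regions per 10 kb. Its next region, in an intron, ranked 7770 and was not found in replicate 2. The windows held 2 other tRNA genes, a tRNA-Ser gene in unc-58 and a tRNA-Ile gene in unc-68, and no pooled summit lay nearer than 4689 bp to them.

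twk-18, a potassium channel gene of body wall muscle on the plus strand of chromosome X from 8988128 to 8991975, had 2 pooled regions of similar signal. The one 1496 bp upstream, inside the noncoding RNA gene C24A3.13, had a signal of 45.8 (rank 6689). The one in an intron 778 bp downstream of a start had a signal of 43.02 (rank 8124). The upstream region was weak in both replicates, at ranks 14638 and 12937, and the intronic one was found in replicate 2 only, at rank 6666.

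**Figure D3:**
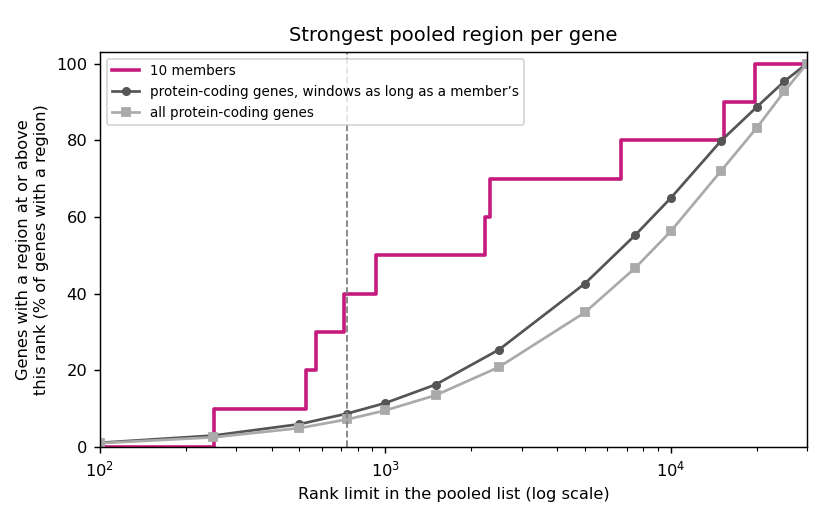
Share of genes (y axis, percent of genes with any pooled region) whose strongest region had at least a given rank (x axis, log scale), for the 10 members, for genes with windows as long as a member's and for all protein-coding genes; the dashed line marks rank 735. At rank 735 the member line stands at 4 of 10 genes and the other lines at 8.77% and 7.24%.

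By overlap, the strong member regions were found in both replicates and the weak ones often were not. Of the 38 pooled regions, 27 (71.1%) overlapped a region in each replicate's own list, against 49.9% of all pooled regions. With overlapping summits within 100 bp in each list the count was 12 of 38 (31.6%), against 24.6% of all pooled regions. By rank, all 12 member regions down to rank 3000 were found in both replicates, as were 100% of all pooled regions to rank 735 and 95.2% of those from rank 736 to 3000. An overlap does not mean a similar rank. In replicate 1 the sca-1 regions of pooled ranks 2157 and 2581 matched regions of ranks 18661 and 29804 only. The lev-1 region of pooled rank 2329 matched one of rank 12012 there. The regions to rank 735 are the optimal list, which was filtered on agreement between replicates, so finding them in both is no separate result. Of the member regions beyond rank 3000, 7 of 9 down to rank 10000 were found in both (75.9% of all regions of those ranks), 5 of the next 8, down to rank 20000 (43.7%), and 3 of the last 9 (23.9%). The share fell with rank for the members as it did for the whole list. Neighbouring pooled regions can overlap the same replicate region, as the pair in lev-1 did. Without matches already held by a stronger pooled region, 20 of 38 (52.6%) were found in both, against 40.9% of all pooled regions, and of the 9 weakest there were 0, against 10.98%. The summits of the 12 strongest lay a median of 20.5 bp from the pooled summit in replicate 1 (largest 297 bp) and 11 bp in replicate 2 (largest 127 bp).

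The order of the members changed with the replicate. Among the 735 strongest regions of replicate 1 only the unc-58 region was from a member locus, and 4.73% of all genes had one in their window. Among those of replicate 2 there were 3 member loci, unc-63, unc-68 and unc-58, and 4.72% of all genes had one. The peaks of unc-63 and unc-68 ranked lower in replicate 1 than in replicate 2, as given above, whereas those of unc-29 were close.

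**Figure D4:**
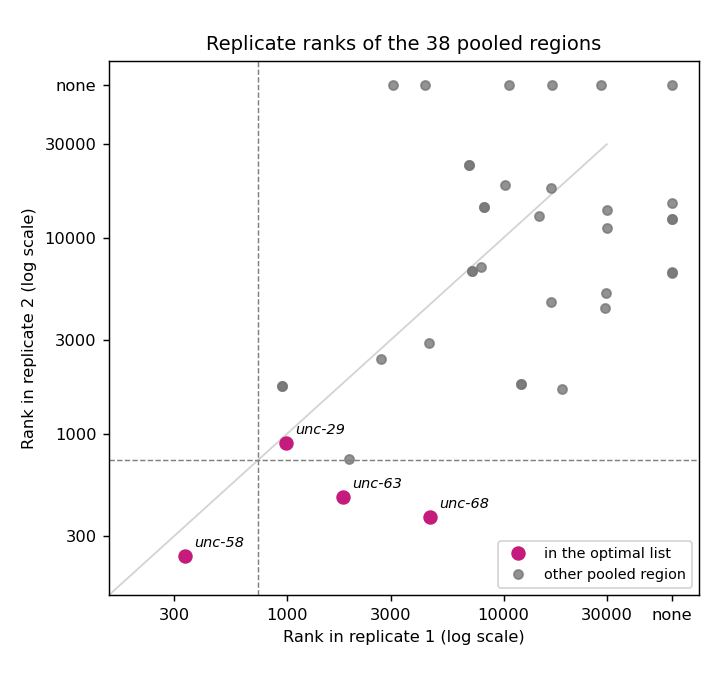
Rank in replicate 1 (x axis) against rank in replicate 2 (y axis), both on log scales, of the replicate regions that overlap each of the 38 pooled member regions; magenta points are regions in the optimal list, grey points the others, and points at none had no overlapping region. Dashed lines mark rank 735 and the grey line equal ranks; only unc-58 lies below 735 in both, while unc-63 and unc-68 do so in replicate 2 alone.

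Member regions were denser upstream of the genes than inside them. The 3000 bp upstream windows held 18 regions, or 6.0 per 10 kb, and the gene bodies 20, or 1.99 per 10 kb. Of the 100628 bp of gene bodies, unc-68 made up 27358 bp with 5 regions and unc-58 28573 bp with 2. Over the genes of similar window length the densities were 3.88 and 3.07 per 10 kb. By annotation, 11 of the 38 summits (28.9%) lay within 1000 bp upstream of a transcript start, 10 in other intergenic sequence, 7 in introns, 7 in coding exons, 2 in 3′ UTRs and 1 in a tRNA gene. Of all pooled regions, 22.3% lay within 1000 bp upstream and 27.9% in introns, and of the optimal peaks 40.4% lay upstream. Some neighbouring summits lay within 430 bp of each other, with 10 pairs 207 to 307 bp apart at unc-63, lev-1, egl-19, unc-68 and sca-1. The 38 regions are therefore not 38 separate sites. Among all 30000 pooled regions there were 4238 pairs within 430 bp. Of the 38 summits, 6 lay inside an annotated noncoding RNA gene, among them the unc-58 summit in a tRNA gene and sca-1 summits in linc-129. The share over all pooled regions was not counted, so this does not set the members apart.

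The member summits resembled the whole pooled list in base composition. The summit with 50 bp on each side held 41.0 ± 7.37% G and C (SD over 38 regions), against 41.1 ± 9.05% over all pooled regions and 50.5 ± 7.24% over the optimal peaks. The 12 member regions down to rank 3000 held 45.7 ± 4.18%, against 47.3% over all pooled regions of those ranks. Those beyond held 38.8 ± 7.56%, against 40.5% over all. Windows 200 bp away from the 38 summits held 37.6 ± 5.88%. Regions of one gene share a locus and are not replicates.

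Of the 5 short motifs examined in the same sequence on either strand, GAGAGA was the most frequent at member summits. It was present at 14 of 38 summits (36.8%), from 6 genes, against 9.71% of all pooled regions and 19.5% of optimal peaks. Down to rank 3000 it was at 6 of 12 member summits, against 20.3% of all regions of those ranks. It was present at 7 of 18 upstream summits and 7 of 20 in gene bodies. In the replicates' own lists it was at 11 of 44 member summits against 8.49% of all regions in replicate 1, and at 8 of 35 (22.9%) against 9.52% in replicate 2. In the pooled list the genes were egl-19, sca-1, unc-29, unc-38, unc-63 and unc-68. The E box CANNTG, the core recognised by basic helix-loop-helix factors, was at 12 summits (31.6%), against 32.6% of all pooled regions and 34.8% of optimal peaks. Down to rank 3000 it was at 2 of the 12 member summits, and the share over all regions of those ranks is not given here. In the replicates' own lists it was at 7 of 44 in replicate 1 (15.9%, against 32.5% of all regions). In replicate 2 it was at 10 of 35 (28.6%, against 33.35%). GTTCGA was at 3 summits (7.89%), those of unc-58, unc-29 and twk-18, against 3.86% of all pooled regions and 15.5% of optimal peaks. CACGTG and CTGTCA were at none, against 2.23% and 3.22% of all pooled regions. A match is a word in the sequence and not a measured binding site.

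Among 58 further genes of neuromuscular transmission and muscle calcium handling, 5 had an optimal peak (8.62%, against the 4.9% of all genes), and these windows were long, with a median of 10499 bp against 5027 bp over all genes. Of 13 genes for receptor assembly and clustering, 3 had one, and the median rank of the strongest region was 1952. lev-9, which codes for a secreted protein that clusters the receptor, had a region with a signal of 300.2 (rank 65) whose summit lay at a tRNA gene 611 bp upstream. rsu-1, which acts in the distribution of receptors on the muscle surface, had a peak 379 bp upstream with a signal of 130.5 (rank 406). This peak ranked 1667 in replicate 1 and 333 in replicate 2. nra-2, a nicalin gene that affects receptor subunit composition, had a peak 247 bp upstream with a signal of 121.5 (rank 485), at ranks 523 and 806 in the replicates.

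Of 16 calcium genes, 14 had a region, with a median rank of 4490 for the strongest. Only csq-1, which codes for the calcium-binding protein calsequestrin of the sarcoplasmic reticulum, had an optimal peak. It lay 315 bp upstream, with a signal of 104.0 (rank 694), at rank 1079 in replicate 1 and 671 in replicate 2. The genes of the other EGL-19 subunits came close in the pooled list. unc-36, for the alpha2/delta subunit, had a region with a signal of 98.7 (rank 774), and ccb-1, for the beta subunit, ranked 1062. In replicate 1 these regions ranked 2101 and 4600, and in replicate 2 they ranked 623 and 924. The 8 dystrophin complex genes had a median rank of 2066. The dystrobrevin gene dyb-1 had a peak 1437 bp upstream with a signal of 107.4 (rank 641), at rank 2251 in replicate 1 and 498 in replicate 2. islo-1 and the sarcoglycan gene sgn-1 ranked 1181 and 1194, at 6069 and 4826 in replicate 1 and 1041 and 1014 in replicate 2. The islo-1 summit lay 2629 bp upstream, within 1000 bp upstream of another gene's start. None of 16 other potassium and cation channel genes had a peak (median rank 5215 over the 15 with a region). Nor did any of 5 other muscle receptor genes (median rank 7850 over the 4 with a region). The strongest regions among the channel genes were those of nca-2 (rank 1099) and unc-79 (rank 1126), of the sodium leak channel complex. Their summits lay 2452 and 2716 bp upstream, and that of nca-2 was within 1000 bp upstream of another gene's start. In replicates 1 and 2 the nca-2 region ranked 589 and 1858, and that of unc-79 1407 and 1866.

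The median rank of the strongest region was 1586 over the 10 members and 4537 over the 54 of 58 pathway genes that had a region. It was 6584 over the 43 of 51 genes of other cell types that had one. Of these 51, 5 had an optimal peak (9.80%), namely 2 of 19 neuronal receptors and channels, 1 of 13 pan-neuronal, 1 of 9 intestinal and 1 of 10 hypodermal genes. These were the neuronal genes osm-9 (rank 373), acr-12 (rank 697) and syd-2 (rank 456), the intestinal gene pgp-1 (rank 189) and the hypodermal gene ajm-1 (rank 470). The summits at osm-9, pgp-1 and ajm-1 lay at tRNA genes, as did that at lev-9 and that at unc-58. Away from tRNA genes, 4 of the 58 pathway genes (6.90%) and 2 of the 51 genes of other cell types (3.92%) had an optimal peak, against 4.05% of all genes. acr-12, the gene of an acetylcholine receptor subunit of motor neurons, had its peak 39 bp upstream with a signal of 103.9, a value close to that of unc-29. In replicates 1 and 2 the acr-12 peak ranked 1979 and 737, and the syd-2 peak 557 and 517. These lists describe loci and not expression, so they do not measure how much of the chromatin came from muscle.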

How the data were processed

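The authors deposited narrowPeak lists on build ce11, the assembly WBcel235. Per the deposited descriptive text, regions were called on each replicate's alignments, and on both together, with a control alignment, and the optimal list came from these by IDR. No label or header names the aligner, the caller or the IDR threshold. The signal value the authors deposited for each region ranks regions within a list, and the authors' deposited −log10 q per region is given where it departs from that order.

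Regions were assigned by summit with Ensembl release 115 genes, and RefSeq sequence of the same assembly was read, using Python 3.11.15, NumPy 2.4.6, pandas 2.3.3 and matplotlib 3.10.9. The assignment was tested on simulated data. A replicate region matched a pooled one by an overlap of at least 1 bp. Summits were classed in turn as tRNA or other small RNA gene, coding exon, UTR, upstream within 1000 bp, intron or other.

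The members and all gene lists were chosen with earlier results of these data known, so no test was made on them. The 5 pathway lists were receptor assembly and clustering, other muscle receptors, calcium handling, other channels and the dystrophin complex. The 4 lists of other cell types were neuronal receptors and channels, pan-neuronal, intestine and hypodermis. The symbols unc-74, nca-1 and opt-2 were not matched. Named were all members, list genes with an optimal peak, the 6 best-ranked pathway genes without one, and genes whose 5′ end was nearest to a member's best region or peak. Other genes named were chosen after their values were seen. Depth per sample is unknown, and 2 replicates limit the precision. Alternatives were other windows, other numbers of peaks, other overlap rules, each replicate alone and summits near tRNA genes left out.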

Additional observations from a re-analysis of the deposited data

How the results depend on the processing

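The 4 members with an optimal peak were 2 with windows from 1000 bp upstream to the gene end, 2 with windows of 1000 bp before and 500 bp after each transcript start (unc-29 and unc-58 in each), and 1, unc-58, with the stronger 50% of the peaks. Taking the strongest regions of a single replicate gave 1 without replicate 2 and 3 without replicate 1. The count was 4 with windows 1000 bp longer at the 3′ end or with any overlap, 5 with the 1470 strongest regions and 3 without summits near tRNA genes. The median best rank of 1585.5 became 5226.5 with 1000 bp upstream, 1518 with 1000 bp beyond the gene end, where the best rank of lev-8 was 2106, and 2285 without summits near tRNA genes, and it ran from 897 without replicate 1, over the 9 members with a region there (1344.5 with lev-8 placed last), to 2901 without replicate 2. Of the 27 regions found in both replicates, 20 met an overlap of 50% and 12 had summits within 100 bp. The share upstream within 1000 bp, 28.9%, was 23.7% within 500 bp, and 22.9% without replicate 1 and 27.3% without replicate 2. GC at the summits, 41.0%, was 42.05% in 51 bp and 40.7% with 100 bp on each side, and 40.03% without replicate 1 and 40.8% without replicate 2. GAGAGA was at 8 summits without replicate 1, 11 without replicate 2 and 19 with 100 bp on each side, and the E box at 10, 7 and 17. The pathway genes with a peak numbered 6 without replicate 1 and 4 without replicate 2, and those of other cell types 4 in each. Without summits near tRNA genes the numbers were 4 and 2. The cause of these shifts was not tested. The analyses of lists (tRNA genes left out included), classes, GC and motifs by single replicate and the wider motif window were added after seeing the data. No paired analysis was possible because there is 1 group. Depth is unknown, so no lower limit of detection can be given.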

Other observations

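At these loci, replicate regions with no pooled region over them were weak. In replicate 1, 17 of the 44 member regions overlapped no pooled region, and the strongest of them, 2572 bp upstream of sca-1 and inside linc-129, ranked 4121. Others lay 9 bp upstream of a start of lev-1 (rank 10553) and 59 bp upstream of twk-18 (rank 17153), where the pooled list had no region at the start. In unc-58 the list of replicate 1 held 9 regions, replicate 2 a single one and the pooled list 3, and the strongest of the additional ones lay in an intron inside the noncoding RNA gene T06H11.13 (rank 4191). In replicate 2, 6 of 35 member regions overlapped no pooled region, and the strongest of them, in a coding exon of unc-68, ranked 15256.

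Of 612 tRNA genes, 398 (65.0%) had a pooled summit within 200 bp. Of the 4 in the member windows, T06H11.t2 did, while T06H11.t3, the tRNA-Ser gene of unc-58 and the tRNA-Ile gene of unc-68 did not.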
